A study of Mus musculus with 10 samples.

Results

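The 34 genes described here encode enzymes and regulators of cholesterol and fatty acid synthesis, named by pathway role, with earlier results of these data known, out of 48471 genes counted in the series. They comprise 16 genes of the sterol branch, 15 of the fatty acid branch and 3 regulators, and all 34 had enough counts to be tested among 15378 genes. RNA was sequenced from cells sorted by flow cytometry on the surface protein CD90. The submitters describe the cells as myofibroblastic cancer-associated fibroblasts (myCAFs), the contractile and matrix-producing fibroblasts of the tumour stroma. The CD90-negative and the CD90-positive fraction each gave 5 libraries, one from each of 5 tumour pools, and both fractions of a pool came from the same animals. All libraries came from C57BL/6J hosts carrying pancreatic ductal adenocarcinomas that grew from orthotopically transplanted KPC T-LOH organoids, so both fractions share the host strain and the tumour model, and tumour-free pancreas was not analysed here. The sample titles list 4, 1, 2, 3 and 1 animals for pools 1 to 5, 11 in all, although the design text speaks of 5 male mice. The ages of the animals and the gate used besides CD90 were not given in the sources used here.

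Cholesterol is built from acetyl-CoA through mevalonate, isoprenoid diphosphates, squalene and lanosterol, and fatty acids are built from acetyl-CoA through malonyl-CoA and then elongated, desaturated and activated as acyl-CoA. The SREBP transcription factors, encoded by Srebf1 and Srebf2, switch on both branches when membrane sterols are low, and INSIG proteins hold them back in the endoplasmic reticulum. Fibroblasts use both products for membranes and secretion, and pancreatic stellate cells, a source of such fibroblasts, are known for storing lipid droplets when quiescent.

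Promoter sequences were looked up because SREBP targets often carry a sterol regulatory element (SRE) beside a CCAAT box, the site of the NF-Y factor. RefSeq promoters of the GRCm38.p6 build were at hand for 28 of the 34 genes. Hmgcs1 is shown as the sterol gene whose promoter held an SRE match, Acsbg1 and Acsl5 as synthetase genes whose levels were higher in every CD90-negative library than in any CD90-positive one, and Acsl4 as a synthetase that was lower. Each line gives the 250 bases before the gene's start, 5′ to 3′ on the gene's strand, and capitals mark matches to the SRE (TCACNCCAC), the E-box (CACGTG) or the CCAAT box (CCAAT) on either strand, a CCAAT box on the other strand reading ATTGG.
Hmgcs1 (chr13:119690101-119690350, plus strand, GRCm38.p6): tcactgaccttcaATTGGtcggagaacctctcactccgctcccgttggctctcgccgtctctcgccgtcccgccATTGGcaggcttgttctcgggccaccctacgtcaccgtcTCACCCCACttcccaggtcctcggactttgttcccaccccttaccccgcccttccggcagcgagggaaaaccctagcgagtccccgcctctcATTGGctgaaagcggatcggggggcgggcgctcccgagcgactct
Acsbg1 (chr9:54661886-54662135, minus strand, GRCm38.p6): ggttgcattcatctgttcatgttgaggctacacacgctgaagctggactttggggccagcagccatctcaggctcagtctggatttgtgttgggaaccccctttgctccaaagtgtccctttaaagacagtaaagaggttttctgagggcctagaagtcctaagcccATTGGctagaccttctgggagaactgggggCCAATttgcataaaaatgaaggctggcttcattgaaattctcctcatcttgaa
Acsl5 (chr19:55253119-55253368, plus strand, GRCm38.p6): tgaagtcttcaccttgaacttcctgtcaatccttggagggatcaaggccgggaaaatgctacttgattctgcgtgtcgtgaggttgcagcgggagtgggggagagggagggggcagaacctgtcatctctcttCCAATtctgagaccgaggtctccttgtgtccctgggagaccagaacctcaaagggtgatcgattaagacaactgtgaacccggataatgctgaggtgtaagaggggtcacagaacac
Acsl4 (chrX:142390536-142390785, minus strand, GRCm38.p6): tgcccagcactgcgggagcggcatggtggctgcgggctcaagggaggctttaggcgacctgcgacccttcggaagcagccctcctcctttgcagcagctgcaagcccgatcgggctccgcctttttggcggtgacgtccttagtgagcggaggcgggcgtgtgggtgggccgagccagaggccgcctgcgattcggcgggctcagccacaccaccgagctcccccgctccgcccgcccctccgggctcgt
The Hmgcs1 SRE match began 137 bases before the start, with CCAAT boxes on both sides of it. The Acsbg1 window held CCAAT boxes 83 and 53 bases before the start, the Acsl5 window one at 117 bases, and the Acsl4 window had none of the 3 motifs. Over windows of 300 bases (250 before to 50 after the start), CCAAT on either strand was found in 13 of 13 sterol genes, in 3 of 3 regulators and in 8 of 12 fatty acid genes, against 41.06% of 27025 genes with a promoter in the table. Some genes, Dhcr7, Srebf1 and Pmvk among them, have several starts, and a gene was counted if any of its windows matched. On the gene's strand alone the shares were 53.85% of sterol genes and 50% of fatty acid genes, against 23.71% of all genes. The E-box was found in 3 sterol genes (Dhcr7, Hsd17b7 and Sc5d), in Insig1 and in Elovl5, against 8.093% of all genes. The SRE letters were found in Hmgcs1 and Acsl1, against 1.436% of all genes. These are matches of letters, and no binding was measured.

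Thy1, which encodes CD90, averaged 8.47 ± 5.18 CPM in CD90-negative and 89.1 ± 29.5 CPM in CD90-positive libraries (SD, n = 5 each), and the fractions did not overlap. CPM are counts relative to the TMM-scaled library size. Libraries held 33.3 to 47.7 M estimated counts in the CD90-negative and 11.7 to 38.2 M in the CD90-positive fraction (M, mega), and 3.71 to 19.8 M and 4.57 to 28.5 M of these belonged to protein-coding genes of the nucleus. Mitochondrial rRNA took 59.3% ± 17.6 of gene-assigned counts in CD90-negative and 26.9% ± 12.8 in CD90-positive libraries, higher in 5 of 5 pools (exact paired permutation p = 0.0625, two-sided, the smallest that 5 pools allow). The summed level of 7 fibroblast markers ranged from 2664 to 13808 CPM in the CD90-negative and from 21409 to 35484 CPM in the CD90-positive fraction, and 6 of the 7 were called lower. The summed level of 8 epithelial markers, among them Epcam, Krt8 and Krt18, ranged from 692 to 2766 CPM in the CD90-negative and from 177 to 1563 CPM in the CD90-positive fraction, higher in 5 of 5 pools, with 5 of the 8 called higher. No marker of these 2 lists was at 0 throughout either fraction. In bulk samples, fewer cells of a type and less RNA per cell cannot be told apart, and the part of other cells and of RNA quality in the results below was not tested.

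Of the 34 genes, 4 rose and 3 fell in CD90-negative cells at an adjusted p under 0.05 (edgeR's quasi-likelihood test with the pool as a block, Benjamini-Hochberg over all genes tested), and all 7 belong to the fatty acid branch. This is 20.6% of the members, against 12.9% of all genes tested (5.83% higher and 7.05% lower). The sterol branch had 0 of 16 genes called, the regulators 0 of 3 and the fatty acid branch 7 of 15. The median log2 fold (CD90-negative over CD90-positive) was 0.49 in the sterol branch and −0.08 in the fatty acid branch, beside 0.04 over all genes tested. Sign aside, the median log2 fold was 0.56 in the sterol and 0.59 in the fatty acid branch. The sterol genes had the lower median level (7.51 against 38.2 CPM) and the larger median SE (0.38 against 0.22). With testing limited to genes averaging at least 3 in log2 CPM, 1729 of 7006 were called. There 0 of 7 sterol genes were called, and of 14 fatty acid genes 5 rose and 3 fell. The part of level and precision in the branch contrast was not tested. The CPM ranges of the fractions did not overlap for 3 of the 34 genes (Acly, Acsl5 and Acsbg1), against 7.93% of all genes.

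**Figure D1:**
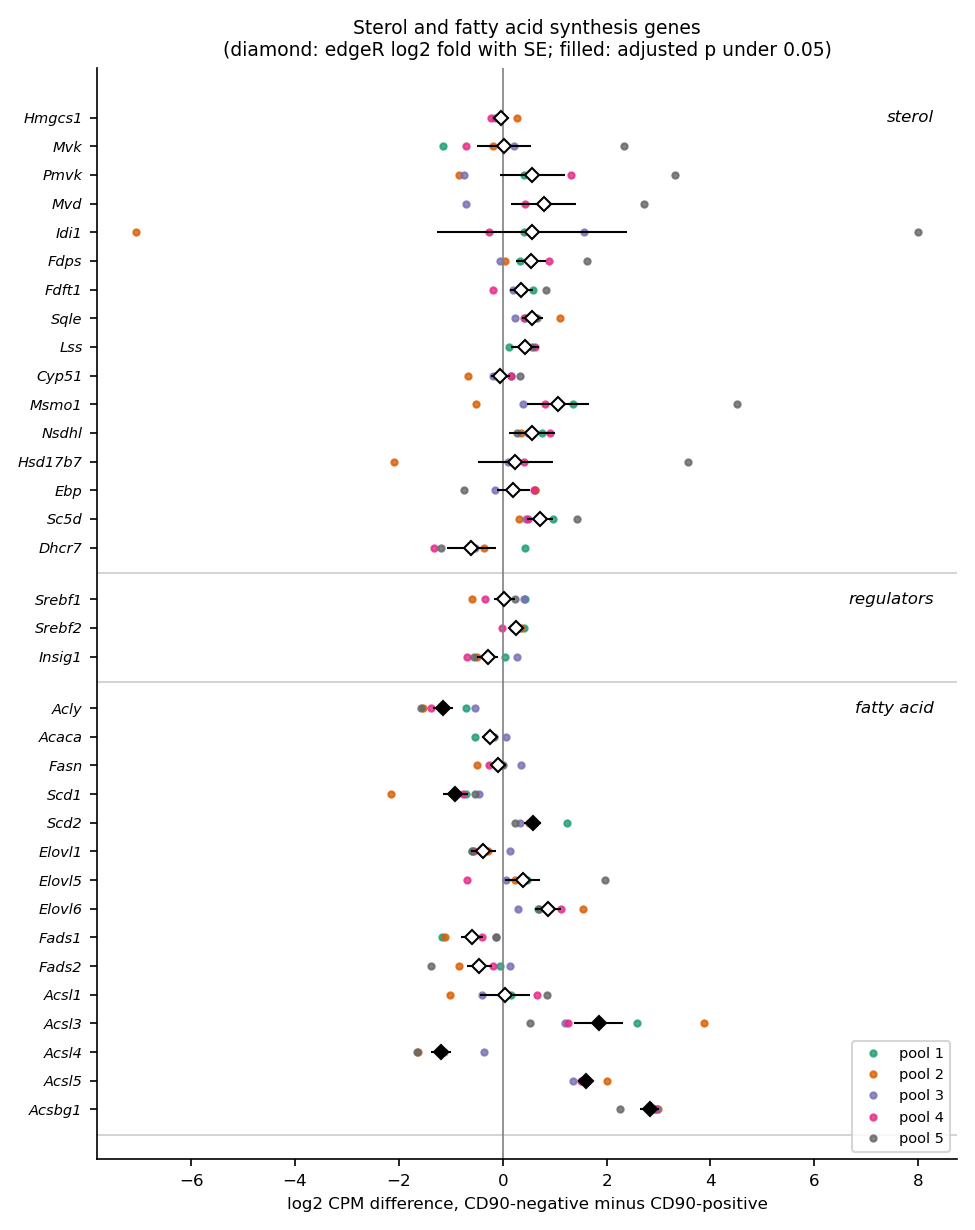
Log2 difference between the CD90-negative and the CD90-positive library of each pool (coloured points) for the 34 genes, with the edgeR log2 fold and its SE (diamonds, filled where the adjusted p was under 0.05). Filled diamonds appear only in the fatty acid branch, from −1.19 for Acsl4 to 2.83 for Acsbg1, and the widest spread between pools is that of Idi1, from −7.06 to 7.99.

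In the sterol branch no gene passed the test by edgeR, 2 of 16 (Sqle and Sc5d) had an unadjusted p under 0.05 against 26.9% of all genes, DESeq2 called 1 (Sc5d, against 23.4% of all genes) and limma-voom called 0 (against 14.8%). Log2 folds were above 0 for 13 of the 16 and ran from −0.60 for Dhcr7 to 1.06 for Msmo1. The median level was 7.51 CPM, beside 7.41 CPM over all genes tested, and the 95% interval of the fold lay within 2-fold either way for 4 of the 16. The branch median was above 0 in each pool, at 0.43, 0.16, 0.14, 0.42 and 1.13 in pools 1 to 5. Without pool 5 it was 0.25 with 9 of 16 genes above 0, and the CD90-positive library of that pool had the fewest nuclear protein-coding counts of its fraction.

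At the entry to the pathway, Hmgcs1, the HMG-CoA synthase, had 46.1, 27.0, 54.5, 43.7 and 24.2 CPM in the CD90-negative libraries of pools 1 to 5, against 47.0, 22.3, 60.6, 51.2 and 24.9 CPM in the CD90-positive libraries. The fractions overlapped throughout, and the pool differed more than the fraction. Its log2 fold was −0.04 (SE 0.15, 95% interval −0.36 to 0.29, adjusted p = 0.912). The mevalonate kinases and decarboxylase Mvk, Pmvk and Mvd averaged 4.91 ± 1.16, 5.84 ± 2.99 and 3.40 ± 1.59 CPM in CD90-negative libraries, against 5.43 ± 3.15, 4.08 ± 2.11 and 1.91 ± 0.82 CPM in CD90-positive libraries, with adjusted p of at least 0.485. Idi1, the isopentenyl diphosphate isomerase, was at 0 in the CD90-negative library of pool 2 and in the CD90-positive library of pool 5, and its log2 fold of 0.57 (SE 1.83) had a 95% interval from −3.72 to 4.85. Fdps, which makes farnesyl diphosphate, averaged 14.1 ± 5.18 and 10.2 ± 5.01 CPM (CD90-negative and CD90-positive), a log2 fold of 0.55 at SE 0.29 with an adjusted p of 0.270.

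Squalene epoxidase (Sqle), often regarded as a rate-limiting step after mevalonate, had 22.8, 17.0, 23.2, 25.3 and 11.9 CPM in CD90-negative libraries, against 16.9, 7.85, 19.5, 19.0 and 7.47 CPM in CD90-positive libraries. It was higher in CD90-negative cells within 5 of 5 pools although the ranges overlapped, and the log2 fold of 0.57 (SE 0.21) had an adjusted p of 0.101. Squalene synthase (Fdft1) and lanosterol synthase (Lss) had log2 folds of 0.36 (SE 0.22) and 0.43 (SE 0.26), with adjusted p of 0.340 and 0.353. Cyp51, the lanosterol demethylase, averaged 33.4 ± 11.9 and 33.8 ± 12.3 CPM (CD90-negative and CD90-positive), a log2 fold of −0.04 with a 95% interval from −0.45 to 0.36. Fdps, Idi1 and Fdft1 share 27.9%, 18.8% and 14.3% of their 31-base words with other genes. Fdft1 and Cyp51 overlap more abundant genes on the opposite strand, Ctsb (181 CPM in CD90-negative and 246 CPM in CD90-positive libraries) and Akap9 (217 and 169.8 CPM), so the counts of these 4 sterol genes are less certain.

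Among the late sterol enzymes, Sc5d, the lathosterol desaturase, had 21.6, 9.76, 13.5, 12.8 and 17.5 CPM in CD90-negative libraries, against 10.99, 7.85, 9.89, 9.18 and 6.48 CPM in CD90-positive libraries. It too was higher in 5 of 5 pools with overlapping ranges, and its log2 fold of 0.72 (SE 0.25) had an adjusted p of 0.0888. Msmo1, a methylsterol monooxygenase, had 27.7, 11.3, 21.6, 15.8 and 12.6 CPM in CD90-negative libraries, against 10.8, 16.2, 16.5, 9.02 and 0.491 CPM in CD90-positive libraries. The CD90-positive library of pool 5 stood far below the others, pool 2 went the other way, and the log2 fold of 1.06 (SE 0.60) had an adjusted p of 0.314. Nsdhl, Hsd17b7 and Ebp, which act in demethylation and isomerization of the sterol ring, had log2 folds of 0.57, 0.24 and 0.20 and adjusted p between 0.477 and 0.870. Dhcr7, a terminal sterol reductase, was the lowest of the branch in fold, at 2.81 ± 1.67 CPM in CD90-negative and 4.06 ± 1.85 CPM in CD90-positive libraries (log2 fold −0.60, SE 0.47, adjusted p = 0.474).

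The regulators did not pass the test, and the 95% intervals of all 3 lay within 2-fold. Srebf2, the SREBP of sterol genes, had 138, 117, 106, 97.2 and 98.1 CPM in CD90-negative libraries, against 103, 91.3, 84.8, 98.6 and 85.5 CPM in CD90-positive libraries. It was higher in 4 of 5 pools, and the log2 fold of 0.26 at SE 0.13 had an adjusted p of 0.256. Srebf1, the SREBP more tied to fatty acid genes, averaged 30.4 ± 6.68 CPM in CD90-negative and 29.5 ± 4.55 CPM in CD90-positive libraries (log2 fold 0.03, SE 0.20, adjusted p = 0.947). Insig1, itself an SREBP target, averaged 19.6 ± 7.56 and 23.0 ± 4.13 CPM (CD90-negative and CD90-positive), a log2 fold of −0.29 at SE 0.20 with an adjusted p of 0.427. SREBP activity depends on cleavage of the protein, which transcript counts do not measure.

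In the core of fatty acid synthesis, only the first enzyme differed past the threshold. Acly, the ATP-citrate lyase that supplies cytosolic acetyl-CoA to both branches, had 66.9, 40.9, 104, 52.0 and 41.2 CPM in CD90-negative libraries, against 109, 119, 151, 135 and 122 CPM in CD90-positive libraries. Each CD90-negative library lay below every CD90-positive one, and the log2 fold was −1.15 (SE 0.19, adjusted p = 0.00561), 2.21-fold lower. Acaca, the acetyl-CoA carboxylase, averaged 31.3 ± 10.9 CPM in CD90-negative and 36.7 ± 10.4 CPM in CD90-positive libraries (log2 fold −0.25, SE 0.15, adjusted p = 0.352). Fasn, the fatty acid synthase, had 141, 80.1, 168, 94.5 and 108 CPM in CD90-negative libraries, against 144, 114, 131, 114 and 107 CPM in CD90-positive libraries. Its ranges overlapped and its direction varied between pools, with a log2 fold of −0.08 and a 95% interval from −0.42 to 0.26 (adjusted p = 0.785). Whether the change of Acly differed from that of Fasn was not tested. About 33.4% of the 31-base words of Acaca are shared with other genes, mostly the gene Gm5182, so its count is less certain.

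The stearoyl-CoA desaturases, which put the first double bond into saturated fatty acids, moved in opposite directions. Scd1 had 31.2, 11.8, 118, 35.4 and 15.96 CPM in CD90-negative libraries, against 51.1, 52.4, 161, 60.5 and 23.0 CPM in CD90-positive libraries. It was lower in CD90-negative cells within each of 5 pools, although pool 3 was the highest of both fractions and the ranges overlapped (log2 fold −0.91, SE 0.24, adjusted p = 0.0368). Scd2 had 214, 127, 204, 240.3 and 147 CPM in CD90-negative libraries, against 91.0, 89.2, 162, 157 and 125 CPM in CD90-positive libraries. It was higher in 5 of 5 pools with overlapping ranges (log2 fold 0.58, SE 0.17, adjusted p = 0.0457), and both calls lie close to the threshold: of 16 other settings, 7 lost Scd1 and 8 lost Scd2. With an offset for transcript length the log2 fold of Scd1 was −0.66 (adjusted p = 0.517), and in TPM Scd1 was higher in the CD90-negative library in pool 3 (337 against 295 TPM) and pool 5 (28.9 against 21.9 TPM). Per length, as TPM recomputed over nuclear protein-coding genes, the ratio of Scd2 to Scd1 was 2.34, 11.8, 0.807, 2.91 and 6.62 in CD90-negative libraries, against 0.899, 0.720, 0.671, 1.69 and 6.07 in CD90-positive libraries, higher in each pool. The summed TPM of both was 340.1 ± 173 in CD90-negative and 293 ± 124 in CD90-positive libraries. Scd1 and Scd2 share 8.14% and 6.81% of their words with other genes, mostly Scd3, which was at 0.711 ± 1.40 CPM in CD90-negative and 0.0629 ± 0.0930 CPM in CD90-positive libraries.

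Of the elongases, Elovl6, which extends palmitate, had 14.7, 9.99, 16.3, 15.1 and 14.6 CPM in CD90-negative libraries, against 9.08, 3.37, 13.3, 6.88 and 8.94 CPM in CD90-positive libraries. It was higher in 5 of 5 pools but missed the threshold (log2 fold 0.87, SE 0.26, adjusted p = 0.0537), and 4 of 16 other settings called it. With the length offset its log2 fold was 0.52 (adjusted p = 0.340), and pool 3 had 19.3 TPM in CD90-negative cells, against 19.8 TPM in CD90-positive cells. Elovl1 and Elovl5, elongases of saturated very long and of polyunsaturated chains, had log2 folds of −0.37 (SE 0.24) and 0.38 (SE 0.34), with adjusted p of 0.384 and 0.532. The polyunsaturated fatty acid desaturases Fads1 and Fads2 averaged 20.4 ± 10.6 and 20.9 ± 8.84 CPM in CD90-negative libraries, against 28.7 ± 8.26 and 26.9 ± 4.26 CPM in CD90-positive libraries. Their log2 folds were −0.59 (SE 0.22) and −0.45 (SE 0.24), with adjusted p of 0.109 and 0.271. Fads1 was lower in CD90-negative cells in 5 of 5 pools, and Fads2 in 4.

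The acyl-CoA synthetases, which activate long-chain fatty acids for storage, membrane lipids or oxidation, held 4 of the 7 called genes, 3 of them higher and 1 lower. Acsbg1, a member of the bubblegum family that is known in the mouse from brain, adrenal gland and testis, lies on chromosome 9. It had 52.7, 67.3, 43.5, 111 and 59.6 CPM in CD90-negative libraries, against 6.75, 8.47, 5.52, 14.6 and 12.4 CPM in CD90-positive libraries. The lowest CD90-negative library was well above the highest CD90-positive one. The log2 fold was 2.83 (SE 0.18, 95% interval 2.44 to 3.22, adjusted p = 0.000205), 7.10-fold higher, and its p ranked 1 of 15378 genes. The within-pool differences were 2.95, 2.98, 2.96, 2.91 and 2.26 on the log2 scale, so pool 5 was the smallest and the other pools lay close together. The transcript Acsbg1-201 carried 91.5% to 97.8% of the gene's counts in CD90-negative and 80.1% to 97.2% in CD90-positive libraries, and none of its 31-base words is shared with another gene.

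Acsl5, on chromosome 19, an acyl-CoA synthetase found on mitochondria and endoplasmic reticulum, had 110.1, 96.4, 85.9, 135 and 85.3 CPM in CD90-negative libraries, against 38.1, 23.9, 33.7, 47.5 and 28.2 CPM in CD90-positive libraries. The fractions did not overlap, and the log2 fold was 1.60 (SE 0.15, adjusted p = 0.000836), 3.03-fold higher, with within-pool differences from 1.35 to 2.01. Zdhhc6, which overlaps Acsl5 on the opposite strand, averaged 26.7 CPM in CD90-negative and 14.4 CPM in CD90-positive libraries, and the strand setting of the counting is not given in the sources used here. Acsl3, a synthetase of lipid droplets and endoplasmic reticulum, had 72.2, 83.8, 27.6, 59.1 and 73.4 CPM in CD90-negative libraries, against 12.0, 5.62, 11.9, 24.8 and 51.1 CPM in CD90-positive libraries. It was higher in 5 of 5 pools, by 0.52 in pool 5 to 3.88 in pool 2 on the log2 scale, with overlapping ranges (log2 fold 1.85, SE 0.47, adjusted p = 0.0394). The call was lost in 7 of 16 other settings, among them without the block (adjusted p = 0.105) and without pool 1, 3 or 4. Utp14b, which overlaps Acsl3 on the same strand and was singled out after its values were seen, averaged 115 ± 42.2 CPM in CD90-negative and 38.2 ± 21.6 CPM in CD90-positive libraries, and its part in the Acsl3 count was not tested.

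Acsl4, on chromosome X, the synthetase that prefers arachidonic acid, had 44.4, 41.1, 189, 51.7 and 16.03 CPM in CD90-negative libraries, against 97.8, 128, 241, 116 and 50.5 CPM in CD90-positive libraries. It was lower in CD90-negative cells in 5 of 5 pools, least in pool 3 where both fractions were highest, and the ranges overlapped (log2 fold −1.19, SE 0.20, adjusted p = 0.00575). Without the pool block the log2 fold was −0.89 and the call was lost. Acsl1 was low, at 3.50 ± 1.91 CPM in CD90-negative and 3.18 ± 1.08 CPM in CD90-positive libraries (log2 fold 0.05, SE 0.49, adjusted p = 0.966).

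**Figure D2:**
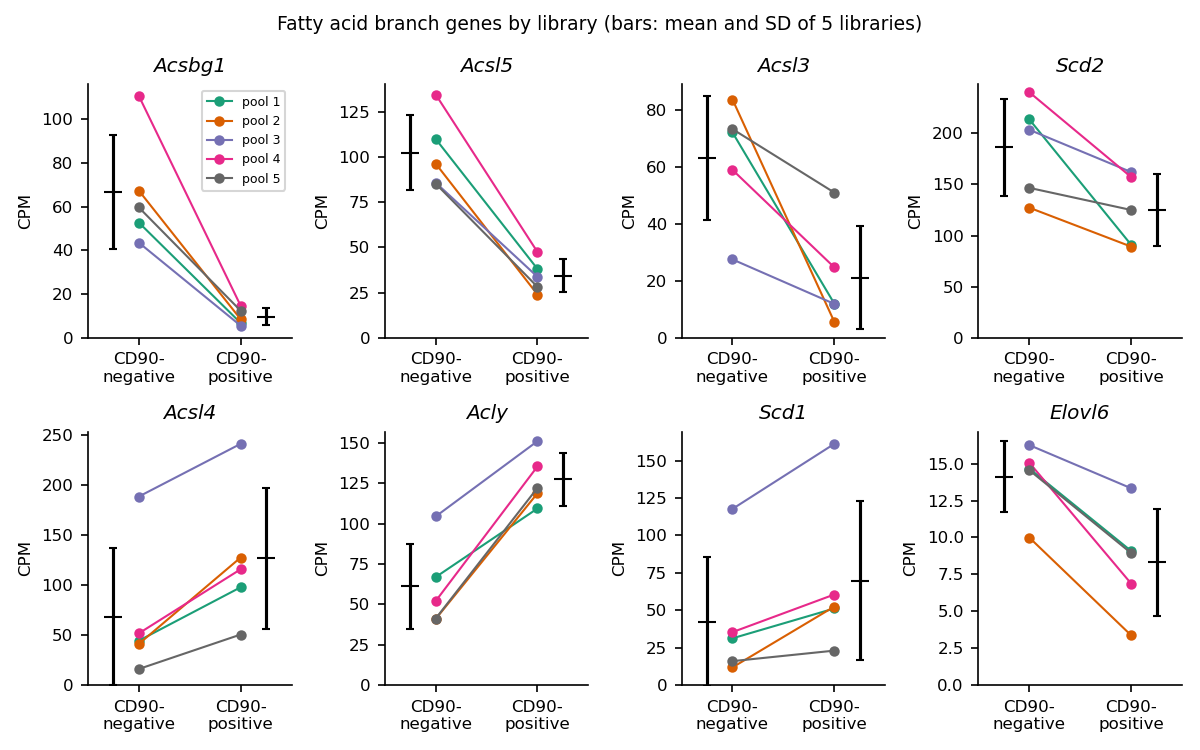
CPM of the 7 called fatty acid genes and of Elovl6 in each library, with CD90-negative on the left and CD90-positive on the right, lines joining the 2 libraries of a pool, and bars for the mean and SD of 5 libraries, those reaching below 0 being clipped at the axis. Acsbg1 and Acsl5 are higher in every CD90-negative library, Acly is lower in every one, and the others keep 1 direction within pools while their ranges overlap.

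Levels of different genes can be compared per length. In TPM, the 5 most abundant of the 34 transcripts were Scd2, Acsl5, Srebf2, Acsbg1 and Acsl3 in the CD90-negative fraction, at means of 225, 219, 190.4, 166 and 163 TPM. In the CD90-positive fraction they were Acly, Srebf2, Scd2, Scd1 and Acsl4, at 187, 153, 149.9, 144 and 123 TPM. Acsbg1 ranked 4 of 34 by mean level in CD90-negative and 21 of 34 in CD90-positive libraries. Many neighbours in these orders differ by less than their SD, which for Acsbg1 was 71.7 TPM in CD90-negative and 21.8 TPM in CD90-positive libraries. The summed level of the 5 synthetases Acsbg1, Acsl1, Acsl3, Acsl4 and Acsl5 was 624 ± 78.7 TPM in CD90-negative and 289 ± 70.0 TPM in CD90-positive libraries, and the ranges (530.2 to 726 and 202 to 363 TPM) did not overlap. Within that sum, Acsl4 made up 11.5% ± 13.5 in CD90-negative and 42.9% ± 21.7 in CD90-positive libraries. The CD90-negative share of Acsl4 was 35.5% in pool 3 and 2.83% to 6.86% in the other pools. Acsbg1 made up 26.5% ± 10.6 in CD90-negative and 9.58% ± 7.05 in CD90-positive libraries. These shares are a description and follow from the differences given above.

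**Figure D3:**
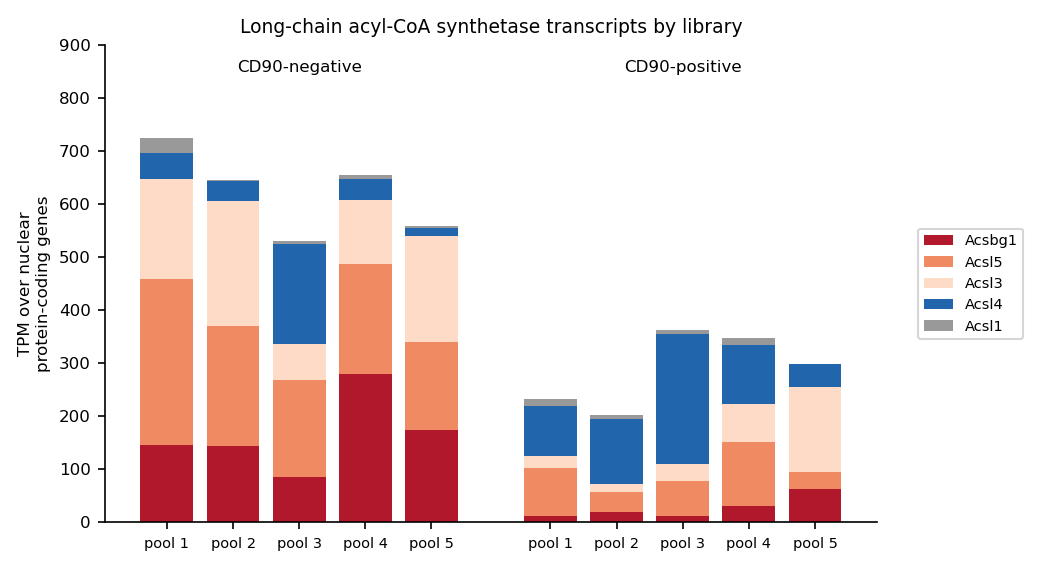
TPM over nuclear protein-coding genes of 5 acyl-CoA synthetases, stacked, in the CD90-negative libraries (left) and the CD90-positive libraries (right) of pools 1 to 5. The bars total 530.2 to 726 TPM in CD90-negative and 202 to 363 TPM in CD90-positive libraries, and Acsl4 is the largest portion of the CD90-negative bar of pool 3 and of the CD90-positive bars of pools 1, 2 and 3.

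Fibroblast and epithelial markers moved with the fraction as well, pool by pool. Other lists were mixed: summed macrophage, pericyte and mesothelial markers were higher in the CD90-negative library in 3, 1 and 2 of 5 pools. The median log2 difference of the fibroblast markers was −2.08, −2.85, −0.55, −1.67 and −3.45 in pools 1 to 5, and that of the epithelial markers was 3.37, 0.54, 2.76, 2.92 and 0.86. Acsl4 and Acly, like the fibroblast markers, had their smallest difference in pool 3, at −0.36 and −0.53, and their largest in pool 5, at −1.65 and −1.57. Scd1 differed by −0.45 in pool 3 and −0.52 in pool 5, with its largest difference in pool 2, at −2.15. Acsbg1 differed by 2.95, 2.98, 2.96, 2.91 and 2.26 in pools 1 to 5, smallest in pool 5, where the epithelial markers differed by 0.86. It was largest in pool 2, where the epithelial markers had their smallest difference, at 0.54. Whether the Acsbg1 difference is tied to the epithelial markers was not tested. Acsl3 had its largest difference in pool 2, where the summed level of 5 endothelial markers was 239 CPM in the CD90-negative library, against 27.1 CPM in the CD90-positive library. In pool 1 Acsl3 differed by 2.58 while the endothelial sum was 30.0 CPM in its CD90-negative library, against 32.0 CPM in its CD90-positive library. The median log2 difference of the endothelial markers was 1.18 in that pool. Of the 5 endothelial markers, Pecam1 and Cdh5 were called higher, and 1 had a log2 fold below 0, at −0.70. Their summed level was higher in the CD90-negative library in 3 of 5 pools. Their median log2 difference was above 0 in each pool, at 1.18, 5.13, 2.77, 2.08 and 0.97 in pools 1 to 5. The summed level of 4 acinar markers was 0.931 to 23.2 CPM in CD90-negative and 0 to 4.03 CPM in CD90-positive libraries, higher in 5 of 5 pools, and Ctrb1 was called higher. Adipocyte markers were low, with a summed level of 4.27 to 12.1 CPM in CD90-negative and 1.38 to 6.17 CPM in CD90-positive libraries, higher in 5 of 5 pools, with Adipoq at 0 in every CD90-negative library and Lep at 0 in all libraries. Of the 2 adipocyte markers with enough counts to test, 1 (Cidec) was called higher.

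**Figure D4:**
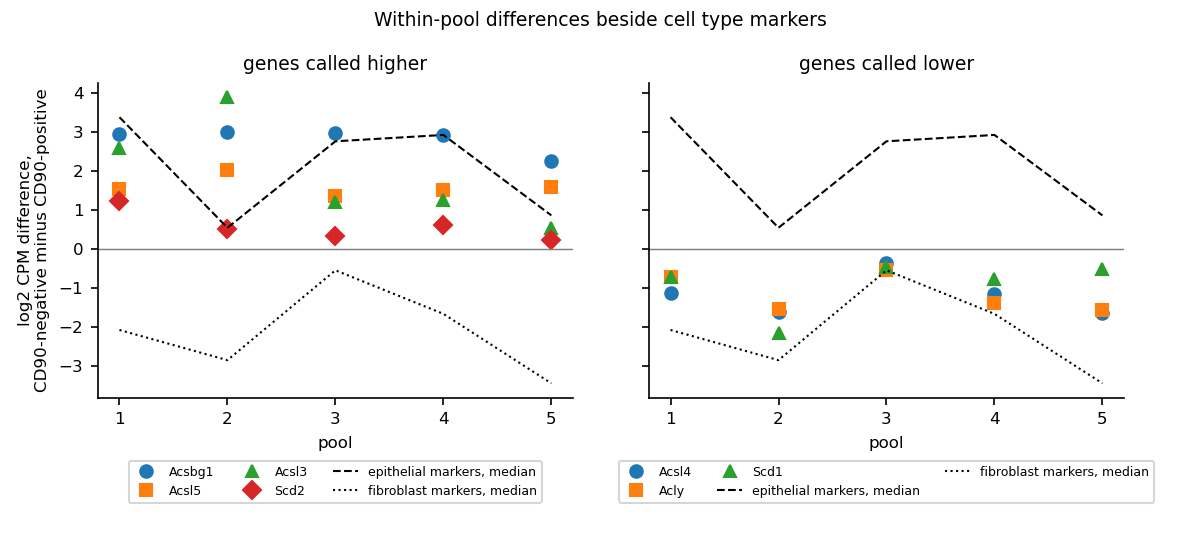
Log2 CPM difference, CD90-negative minus CD90-positive, in pools 1 to 5 for the called genes (symbols; higher on the left, lower on the right) with the median of the epithelial and of the fibroblast markers (lines). Acsbg1 lies between 2.26 (pool 5) and 2.98, and the epithelial median lies between 0.54 and 3.37. Acsl4 and Acly are nearest to 0 in pool 3, as is the fibroblast median.

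Other genes of lipid metabolism were counted by list. Of 13 tested regulators, 1 rose and 0 fell (7.69%, against 12.9% of all genes). The 1 was Pparg, the nuclear receptor of fat cell differentiation. It averaged 19.0 ± 5.90 CPM in CD90-negative and 3.85 ± 4.47 CPM in CD90-positive libraries (log2 fold 2.98, SE 0.47, adjusted p = 0.00561). Among 12 genes of sterol uptake, transport and esterification, 4 fell and 0 rose (33.3%, against 12.9% of all genes), with an unadjusted p under 0.05 for 6, 1 of them higher. In 8 of 16 other settings, DESeq2 and limma-voom among them, 1 gene of this list was called higher, and the lower calls numbered 2 without pool 2 and 0 without pools 4 and 5. The 4 were the endocytic receptor Lrp1 (log2 fold −1.998), the lysosomal cholesterol carrier Npc2 (−0.88), the cholesterol acyltransferase Soat1 (−0.74) and, beyond the naming rule, the sterol exporter Abca1 (−0.79).

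Among 18 further tested genes of fatty acid and glycerolipid synthesis, 2 rose and 1 fell (16.7%, against 12.9% of all genes). Me1, the malic enzyme that supplies NADPH, averaged 63.0 ± 24.0 CPM in CD90-negative and 26.7 ± 12.1 CPM in CD90-positive libraries (log2 fold 1.24, adjusted p = 0.0159). Hsd17b12, the ketoacyl reductase of chain elongation, had a log2 fold of 0.64, and the phosphatidate phosphatase Lpin1 one of −1.03. Of 16 other settings, 5 lost the call of Me1, 9 that of Hsd17b12 and 9 (of 15 in which it was tested) that of Lpin1. Lpin1 and Hsd17b12 were lost with any 1 pool left out, and Me1 without pool 1 or pool 4. Of 14 tested genes of fatty acid oxidation, 1 rose and 1 fell (14.3%, against 12.9% of all genes), and 9 log2 folds were above 0. The 1 that fell was the carnitine palmitoyltransferase Cpt1c (−1.97). Of 9 tested genes of lipid droplets and lipid uptake, 2 rose and 2 fell (44.4%, against 12.9% of all genes). The droplet coat gene Plin2 (1.16) and, beyond the naming rule, the triglyceride lipase gene Pnpla2 (1.34) rose. Lipoprotein lipase Lpl (−2.30) and monoglyceride lipase Mgll (−1.68) fell. Plin2 averaged 45.3 ± 16.3 CPM in CD90-negative and 19.7 ± 4.64 CPM in CD90-positive libraries. Without the block the calls of Pparg, Soat1, Abca1, Hsd17b12, Lpin1 and Mgll were lost. Without pool 1 those of Abca1, Cpt1c and Pnpla2 were lost, beside those of Me1, Hsd17b12 and Lpin1 given above. Soat1 and Abca1 were each lost in 5 of 16 other settings. Every gene named in these lists moved in 1 direction in 5 of 5 pools. The genes were named because they passed the test over these same pools, so this adds no support.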

How the data were processed

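Per the labels, RNA was extracted from sorted cells and a stranded kit for low input was used on 0.1 to 1.2 ng of total RNA, with integrity numbers of 3.1 to 8.7 that no label ties to a library. The authors deposited an estimated count, a TPM and an effective length per transcript, from Salmon 1.9.0 on GRCm39 (mm39) per the submitters' processing notes; the sources used here give neither annotation nor strand setting. Of 144584 transcripts, 133666 (92.4%) matched GENCODE M21, used for names only; the rest held 3.63% to 12.1% of the counts of a library. Counts were summed per gene, rounded and tested in R 4.3.3 by edgeR 4.0.16 (TMM, filterByExpr, glmQLFTest, tumour pool as a block, Benjamini-Hochberg, threshold 0.05). A positive log2 fold means higher in CD90-negative cells, SE follow from the F statistic, and log2 CPM used a prior count of 2. TPM were rescaled to sum to 1 M (mega) over nuclear protein-coding genes and not tested. Pools pair the libraries through shared animals; as a check, the deviations from the fraction means of the 2 libraries of a pool had correlations of 0.06, 0.00, 0.46, 0.03 and 0.19. No 2 libraries of a group agreed within counting noise (chi-square per degree of freedom of at least 39.3). P-values measure how the difference between the fractions varies from pool to pool, a spread which may be partly technical. PCR reads without molecular identifiers are not independent molecules. The code was tested on simulated data. The 34 genes and the other lists were chosen with earlier results of these data known. Named were every member, up to 3 called genes per other list by smallest p, and Thy1. DESeq2 1.42.0, limma 3.58.1 (voom) and 14 other settings were tried. The results of some genes on the other lists are not reported here.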

Additional observations from a re-analysis of the deposited data

Results flagged for a closer look

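Among 68 sets of 5 libraries (34 genes in 2 fractions), 7 had 1 library standing far from the other 4, where chance gives about 1 in 20. In the CD90-positive fraction, 4 were low in pool 5, the library with the fewest nuclear protein-coding counts of that fraction (4.57 M): Pmvk at 0.589 CPM (others 4.17 to 6.24), Idi1 at 0 CPM (others 2.06 to 8.35), Msmo1 at 0.491 CPM (others 9.02 to 16.5) and Hsd17b7 at 0.0982 CPM (others 3.31 to 6.64). In the CD90-negative fraction, 3 were low in pool 2, which held 11.5 M such counts: Lss at 3.22 CPM (others 8.65 to 11.5), Nsdhl at 1.98 CPM (others 3.68 to 4.61) and Elovl6 at 9.99 CPM (others 14.6 to 16.3). The sets were compared on the log2 CPM scale, and on that scale none of the 7 called genes was set apart. In plain CPM, Acsl4 stood high in the CD90-negative library of pool 3, at 189 CPM (others 16.03 to 51.7). Scd1 stood high in both libraries of that pool. It was at 118 CPM in CD90-negative cells (others 11.8 to 35.4) and 161 CPM in CD90-positive cells (others 23.0 to 60.5).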

How the results depend on the processing

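Across 16 other settings none of the 7 called members changed direction. Acsbg1 (log2 fold 2.39 to 2.94) and Acsl5 (1.49 to 1.71) lost their calls only when the mitochondrial rRNA share was added as a term beside the replicate block, where 0 genes were called (882 with an unadjusted p under 0.05), so 0 fatty acid genes were higher and 0 lower. There Acsbg1 was at 2.39 and Acsl5 at 1.57, both with an adjusted p of 0.751. Acly was also lost without pools 4 and 5, and Acsl4 also without these pools and without the block; Scd1, Scd2 and Acsl3 were lost under 7, 8 and 7 settings. Without the replicate block, 965 genes were called in place of 1980, with 2 fatty acid genes higher and 1 lower. Without pools 4 and 5, 541 genes were called, 66.0% of them higher against 45.3%, with 2 fatty acid genes higher and 0 lower. The gene length offset gave 2 fatty acid genes higher. DESeq2 called 3452 genes and 1 sterol gene (Sc5d), and no filter on low counts gave 1 sterol gene (Msmo1). With 1 pool left out at a time, 675 to 2019 genes were called, 2 to 3 fatty acid genes were higher, 2 to 3 were lower and 0 sterol genes were called either way, and the mitochondrial rRNA difference was 27.6 to 35.6 percentage points. Without pool 1, 675 genes were called. The cause of these changes was not tested. The sterol median fell to 0.25 without pool 5 and 0.17 without pools 4 and 5. For 12 of the 16 sterol genes the interval does not exclude a 2-fold change.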
